A study of Sus scrofa with 10 samples.

Results

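The cells described here were EOMES-expressing intermediate progenitor-like cells (IP-like cells) of the fetal pig brain, measured by single-cell RNA sequencing of tissue dissected as medial entorhinal cortex (MEC). They were chosen by the measured UMI counts themselves: a cell of the libraries E50_1, E60_3, E70_1, E70_2 or E70_3 was taken when it held at least 1 unique molecular identifier (UMI) of EOMES and at least 2 UMIs in all of NEUROG2, INSM1, HES6, NHLH1 and NEUROD4. This rule found 456 cells among the 12432 cells of these 5 libraries and the 28229 cells of the 10 libraries in the series. The levels of these 6 genes in the IP-like cells are therefore a description and were not tested.

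All 5 libraries held whole cells from untreated, crossbred pig fetuses, dissociated with papain. By the labels, E50_1 came from 3 pooled brains at embryonic day 50, E60_3 from 2 brains at embryonic day 60, E70_1 from 2 brains at embryonic day 70, and E70_2 and E70_3 from 1 brain each at embryonic day 70. The study's own list of samples gives the pooling of E70_1 and E70_3 the other way round. With 1 library at E50 and 1 E60 library under the rule, differences between stages have no replicate check, and differences between cell classes were tested over libraries, never over cells.

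In the developing cortex, radial glia at the ventricle divide to give neurons either directly or through intermediate progenitors. An intermediate progenitor leaves the ventricular surface, switches on the T-box transcription factor EOMES (TBR2), divides only a few times in the subventricular zone, and gives rise to glutamatergic neurons. The step runs through a known order of transcription factors, in which PAX6 marks radial glia, EOMES, INSM1, HES6 and NEUROD4 mark intermediate progenitors, NEUROD1 marks late progenitors and newborn neurons, and TBR1, NEUROD2 and NEUROD6 mark postmitotic neurons.

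The label of intermediate progenitors rested on 3 of its 5 marker genes. EOMES (Sscrofa11.1, chr13:14209590-14216184 in the RefSeq annotation), HES6 (chr15:137785808-137787689), a relative of the HES repressors that promotes differentiation, and NEUROD4 (chr5:20046864-20057380), a proneural factor, were detected. NEUROG2, the proneural factor upstream of EOMES, had 7 UMIs among all cells of E50_1, 1 each in E60_3 and E70_2, and 0 in E70_1 and E70_3. INSM1, a zinc finger factor of delaminating progenitors, had 2 UMIs in E50_1 and 0 in the other 4 libraries, and NHLH1 had 1 UMI in E50_1 alone. These 3 genes thus took almost no part in the choice, whatever the cells' biology.

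Levels are given as CPM, the UMIs of a gene summed over the cells of a class, per 1e+06 UMIs of these cells. A deep cell thus weighs more than a shallow one. The deepest IP-like cell held 65909 of 2515535 UMIs in E50_1 and 81803 of 1925618 in E60_3. In E70_1, E70_2 and E70_3 the deepest held 230571 of 1590659, 125684 of 991269 and 36175 of 210782 UMIs. EOMES was 221 CPM in E50_1, 216 in E60_3, 64.1 in E70_1, 140 in E70_2 and 280 in E70_3 (95% Poisson interval 213 to 361, counting error only). NEUROD4 stood at 72.0 CPM in E50_1, 109 in E60_3, 25.8 in E70_1, 24.2 in E70_2 and 299 in E70_3. E70_1 and E70_2 were the lowest of the 5 libraries for both genes. HES6 was 931 CPM in E50_1 and between 82.6 and 131 CPM in the other 4 libraries.

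E70_1 and E70_2 stood apart in where EOMES was found. In these libraries an EOMES UMI was seen in 31.6% and 35.5% of all cells, and also in 6 of 20 (30%, exact 95% interval 11.9 to 54.3%) and 5 of 18 (27.8%, 9.69 to 53.5%) of the cells with at least 5 UMIs of the microglial genes AIF1, CSF1R and PTPRC, which should lack it. The median depth of those microglia-type cells was 16030.5 and 11836 UMIs, against 15027 and 12800 UMIs in the IP-like cells. In E50_1, E60_3 and E70_3 the share was 0.775% of 129, 2.10% of 143 and 0 of 106 microglia-type cells, against 5.30%, 12.9% and 5.48% of all cells. In E70_1 and E70_2 a single EOMES UMI thus did not set cells apart from microglia-type cells. At least 2 HES6 UMIs were seen in 0 of these 20 and 0 of these 18 microglia-type cells. Of the IP-like cells there, 7 and 12 held 4 or more EOMES UMIs. Whether EOMES in these libraries is background was not tested. The counts over all genes and over the larger lists below are also given without these 2 libraries, which hold 44 and 43 of the IP-like cells. The counts of genes that differed from both classes and the counts between stages were not recomputed without them.

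The second condition of the rule was carried by different genes in different libraries. In E50_1, 47.3% of all cells held at least 2 UMIs of HES6, including 15.5% of the microglia-type cells, so that 84.9% of the cells with an EOMES UMI met the rule and 145 of its 248 IP-like cells had no NEUROD4 UMI. In E60_3 59 of 98 IP-like cells held both HES6 and NEUROD4, 22 only HES6 and 17 only NEUROD4. In E70_3 all 23 IP-like cells held NEUROD4, and 10 of them had no HES6. In E50_1 NEUROD4 was found in 237 cells, of which 103 were IP-like cells (41.5% of the 248), and in 2 of its 129 microglia-type cells.

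At the threshold, the 24 cells of E50_1 with EOMES and 1 UMI of the 5 genes had an EOMES level of 116 CPM and the 26 cells with exactly 2 UMIs had 111 CPM. In E60_3 these were 233 CPM in 83 cells just outside and 200 CPM in 37 cells just inside, and in E70_3 235 CPM in 29 cells and 162 CPM in 10 cells. In E70_1 they were 104 CPM in 41 cells and 94.4 CPM in 17 cells, and in E70_2 89.9 CPM in 47 cells and 108 CPM in 21 cells. EOMES was thus no lower among the cells just left out in 4 of 5 libraries, and outside E50_1 the cells just outside outnumbered those just inside.

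The IP-like cells made up 4.50% of E50_1 (248 of 5506 cells, exact Clopper-Pearson 95% interval 3.97 to 5.09%, counting error only), 3.64% of E60_3 (98 of 2696, 2.96 to 4.41%), 8.92% of E70_1 (44 of 493, 6.56 to 11.8%), 6.97% of E70_2 (43 of 617, 5.09 to 9.27%) and 0.737% of E70_3 (23 of 3120, 0.468 to 1.10%). The 3 E70 libraries averaged 5.54% ± 4.28 (SD, n = 3), so the spread within E70 covered the E50 and E60 values. The same UMI rule found no cell among 8171 in E60_1, which allows a share of up to 0.0367% (3 counts of the total), and 4 of 3479 in E60_2 (0.115%), although these libraries are of the same stage as E60_3. It found no cell in the E70 nuclei, the adult whole cells or the adult nuclei, where 0 cells allow up to 0.350%, 0.407% and 0.118% by the same limit.

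These shares depended on depth. IP-like cells had a median of 8241 UMIs in E50_1, 14070.5 in E60_3, 15027 in E70_1, 12800 in E70_2 and 7267 in E70_3, against library medians of 8469, 7968, 9294, 9403 and 6828. When every cell was thinned at random to 3000 UMIs, which 482 cells of E70_1, 609 of E70_2 and all cells of the other 3 libraries reached, the rule held for 1.94% of E50_1, 0.445% of E60_3, 0.415% of E70_1, 0.493% of E70_2 and 0.321% of E70_3. E50_1 was then the highest library, and the intervals of the other 4 overlapped. When HES6 was left out and EOMES and NEUROD4 were each required at 1 UMI, a rule added after the data were seen, the shares were 1.87%, 3.89%, 4.06%, 2.27% and 1.22%.

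**Figure D1:**
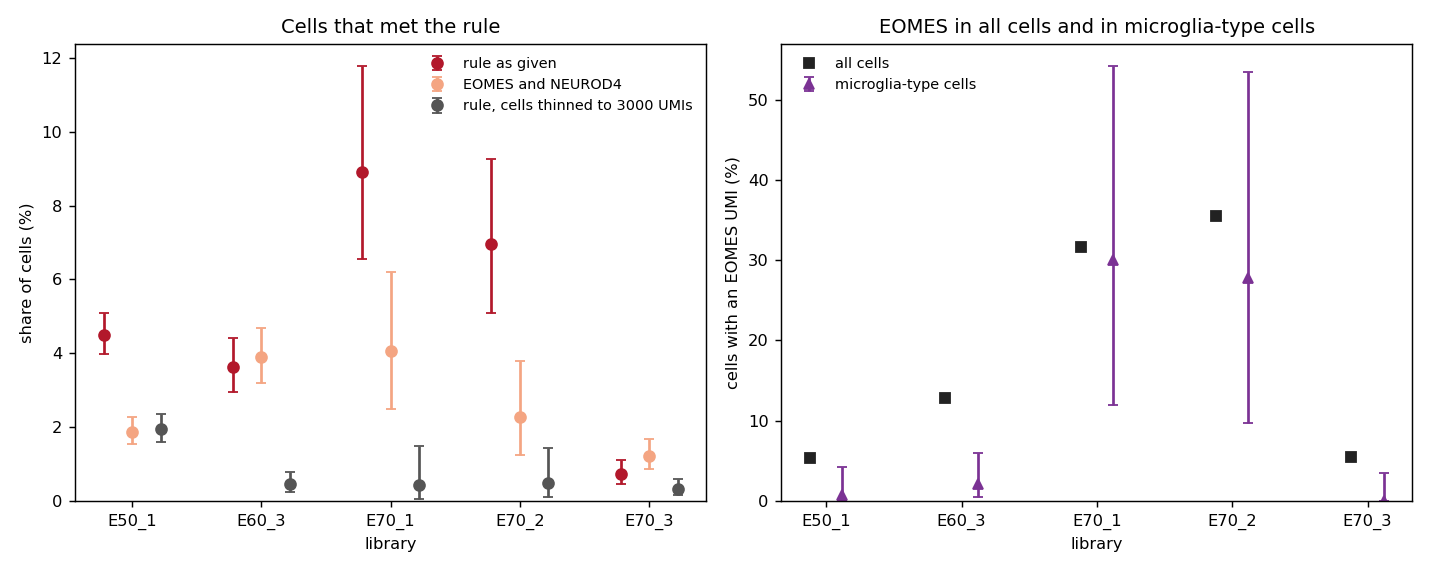
Left, the share of cells in percent that met the rule in each of the 5 libraries, as given, with EOMES and NEUROD4 alone, and after thinning to 3000 UMIs per cell, with exact 95% intervals as bars. Right, the percent of all cells (squares) and of microglia-type cells (triangles, exact 95% intervals) with an EOMES UMI. In E70_1 and E70_2 the microglia-type cells, at 30% and 27.8%, were near the level of all cells.

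The IP-like cells were next compared with 2 classes of the same libraries, chosen by radial glia genes and by neuronal genes. The HES1 and SOX2 cells held at least 1 UMI of each of these radial glia genes, no EOMES, no OLIG1, PDGFRA or microglial gene, and at most 1 UMI of the 5 genes (334 cells in E50_1, 120 in E60_3, 162 in E70_3). E70_1 and E70_2 had only 2 and 5 such cells and gave no sum, so only 3 libraries held both classes of this comparison. The glutamatergic neuron-type cells held SLC17A6 or SLC17A7 together with BCL11B or a further neuronal gene, at most 1 UMI of the 5 genes, and none of EOMES, SOX2, HES1, GAD1, GAD2 or the microglial genes (175, 502, 47, 73 and 585 cells in the 5 libraries). UMIs were summed per library and class, and 1 edgeR quasi-likelihood fit with the library as block tested 13387 genes, from which the genes of every rule were left out. The other sums of E70_1 and E70_2 were in this fit, so they could also move the estimates against the HES1 and SOX2 cells. Genes were called at a Benjamini-Hochberg adjusted p under 0.05. In E50_1 the HES1 and SOX2 cells also held COL1A1 at 249 CPM, COL3A1 at 100 CPM and APOE at 1672 CPM. These 3 genes were among the 10 named for the largest decrease against this class. The neuron-type cells of E50_1 held 952 CPM of midbrain and diencephalon genes, against 861 CPM of pallium genes. How far cells of other types or regions moved the calls was not tested.

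In this fit, 873 genes (6.52% of those tested) were higher in the IP-like cells than in the HES1 and SOX2 cells and 896 (6.69%) were lower. Against the neuron-type cells, 1157 (8.64%) were higher and 661 (4.94%) were lower. Without E70_1 and E70_2 the counts were 751 and 796, and 1006 and 611. These percentages are the background against which each list below is read. The median log2 fold change over all genes tested was 0.018 against the HES1 and SOX2 cells and 0.0092 against the neuron-type cells.

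Genes known from intermediate progenitors were, as a list, on the high side in both comparisons. The IP-like cells were chosen for EOMES and the other genes of the rule. Both comparison classes were chosen for the absence of EOMES and for low counts of those other genes. This choice by itself favours higher levels in the IP-like cells for genes of this list that vary with the genes of the rule. How far it moved the calls was not tested. Of 21 tested genes of this list, 12 were higher than in the HES1 and SOX2 cells (median log2 fold change 1.31 over the 21), and 10 were higher than in the neuron-type cells (median 0.80). None was called lower in either, also at an unadjusted p under 0.05 and by DESeq2, but 1 gene was called lower than in the neuron-type cells without E50_1 and without E70_1, and 1 lower than in the HES1 and SOX2 cells with no filter on low counts. Without E70_1 and E70_2 12 and 10 of 18 tested genes were higher. Without the block for library 3 and 0 were higher. The count against the neuron-type cells was 6 of 21 without E50_1, without E60_3 and without E70_3. Summed over the list, the level in the IP-like cells was 4783, 2358, 1500, 1471 and 2851 CPM in the 5 libraries. In the neuron-type cells it was 2006, 1563, 1564, 1421 and 1330 CPM. The Poisson intervals of these 2 classes overlapped in E70_1 and E70_2, so the list was not shown to be higher there.

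NEUROD1, the bHLH factor that follows EOMES, was 108 CPM in the IP-like cells of E50_1, 24.9 in E60_3, 65.4 in E70_1, 6.05 in E70_2 and 138 in E70_3. The HES1 and SOX2 cells had 6.04, 1.88 and 4.86 CPM in E50_1, E60_3 and E70_3, far below the IP-like cells of the same library, and the neuron-type cells 13.2, 22.7, 27.4, 3.09 and 35.3 CPM. The fitted log2 fold change was 4.12 ± 0.45 (SE, adjusted p = 4.0e-05) against the HES1 and SOX2 cells and 1.48 ± 0.33 (adjusted p = 0.0081) against the neuron-type cells, with IP-like cells higher in 5 of 5 libraries. In E60_3 the 2 levels were close, at 24.9 and 22.7 CPM, and without E70_3 the call against the neuron-type cells was lost.

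IGFBPL1, a binding protein of insulin-like growth factors that is abundant in newborn cortical cells, was higher than in either class. Its level in the IP-like cells was 2459 CPM in E50_1, 605 in E60_3, 84.2 in E70_1, 96.8 in E70_2 and 726 in E70_3, against 528, 101, 50.3, 34.0 and 37.7 CPM in the neuron-type cells and 579, 265 and 210 CPM in the HES1 and SOX2 cells of E50_1, E60_3 and E70_3. The groups of each library did not overlap in their Poisson intervals except against the neuron-type cells of E70_1. MFNG, a fringe glycosyltransferase that modifies Notch, was 21.9, 4.15, 11.9, 2.02 and 19.0 CPM, and was higher by 2.96 ± 0.69 against the HES1 and SOX2 cells and 3.13 ± 0.67 against the neuron-type cells (adjusted p = 0.0097 and 0.0058). Without E50_1 both MFNG calls, and without E50_1 or E60_3 the IGFBPL1 call against the HES1 and SOX2 cells, were lost. RASGRP1, a Ras activator, and GADD45G, a stress and differentiation gene, were also higher than in both classes, but leaving out E50_1 or E60_3 ended the call of each against the neuron-type cells.

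A further part of the list was called against the HES1 and SOX2 cells alone. ELAVL4, ELAVL2 and SRRM4, which act in neuronal RNA processing, and SSTR2, a somatostatin receptor of migrating progenitors, were higher than in the HES1 and SOX2 cells by 2.00, 2.05, 2.83 and 2.96 (log2), and the differences from the neuron-type cells, between -0.35 and -0.11, did not pass the test. SOX4 and SOX11, with CBFA2T2, were also called against the HES1 and SOX2 cells alone. SOX4 and SOX11 had under 35 CPM in every sum of the IP-like cells, and the SOX11 call was lost under 10 of 15 alternatives.

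Another part was called against the neuron-type cells alone. A missing call against the HES1 and SOX2 cells does not show equal levels. At an unadjusted p under 0.05 in the edgeR fit, 17 of the 21 tested genes were higher than in those cells. BTG2, an antiproliferative gene of neurogenic divisions, was 108, 287, 50.3, 48.4 and 304 CPM in the IP-like cells of the 5 libraries, and 53.3, 127, 22.9, 12.4 and 58.5 CPM in the neuron-type cells, so that IP-like cells were higher in each (log2 fold change 1.46 ± 0.20, adjusted p = 0.00025). Against the HES1 and SOX2 cells BTG2 differed by 0.59 ± 0.22, which did not pass (adjusted p = 0.089). TFAP2C, an AP-2 factor of cortical progenitors, and PPP1R17, a phosphatase inhibitor of human and primate intermediate progenitors, gave 2.31 and 2.85 against the neuron-type cells, the former not called without E60_3 or without E70_3. PENK was called against the neuron-type cells too, but 5 of the 248 IP-like cells of E50_1 held 86% of its UMIs there. DLL1 and DLL3, Notch ligands of this stage, were at 25.2 CPM or less in every sum and were not called.

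**Figure D2:**
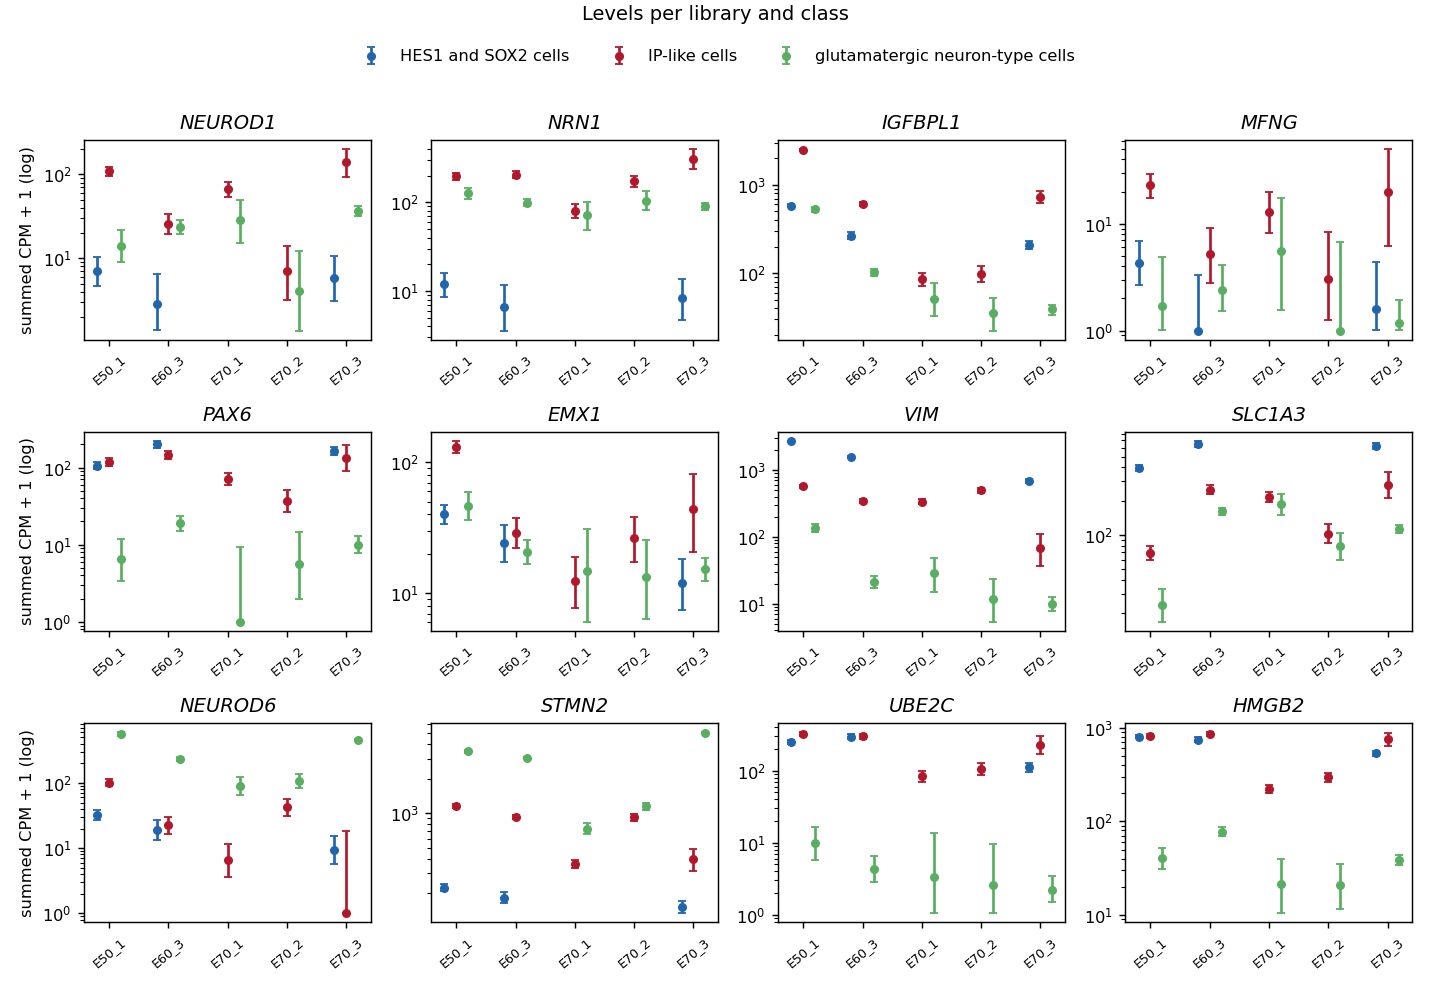
Level of 12 genes in each library (horizontal axis) in the HES1 and SOX2 cells (blue), the IP-like cells (red) and the neuron-type cells (green), as CPM + 1 on a log axis. Bars are exact 95% Poisson intervals. NEUROD1, NRN1 and IGFBPL1 peaked in the IP-like cells, VIM fell from the HES1 and SOX2 cells to the neuron-type cells, and the differences of UBE2C and HMGB2 from the HES1 and SOX2 cells did not pass the test, with UBE2C at 228 and 111 CPM in E70_3.

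Genes of the radial glia list mostly lay between the levels of the comparison classes in the IP-like cells. One comparison class was chosen for HES1 and SOX2 and the other for their absence, with no such condition on the IP-like cells. This choice by itself favours an intermediate level for genes that vary with HES1 and SOX2. Of 18 tested genes of the radial glia list, 13 were lower than in the HES1 and SOX2 cells (median log2 fold change -1.90) and 12 were higher than in the neuron-type cells (median 1.17). The counts were 13 and 11 without E70_1 and E70_2, and 7 and 5 without the block. Without E60_3, 7 genes were higher than in the neuron-type cells. PAX6, the homeobox factor of radial glia, was an exception in the first comparison, with 118, 146, 70.4, 36.3 and 133 CPM in the IP-like cells of the 5 libraries and 104, 198 and 163 CPM in the HES1 and SOX2 cells of E50_1, E60_3 and E70_3. Its difference of -0.14 ± 0.24 from these did not pass (adjusted p = 0.79), while it was higher than in the neuron-type cells by 3.65 ± 0.26 (adjusted p = 7.2e-07), where it ranged from 0 to 18.0 CPM.

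VIM, the intermediate filament of radial glial fibres, was 572 CPM in the IP-like cells and 2686 in the HES1 and SOX2 cells of E50_1, 342 and 1577 in E60_3, and 66.4 and 688 in E70_3. The 2 classes did not overlap, and VIM was lower by a log2 fold change of -2.28 ± 0.39 (adjusted p = 0.0014). FABP7, the brain lipid binding protein, was lower by -2.96 ± 0.30, and SLC1A3, the glutamate transporter GLAST, by -1.87 ± 0.28. SOX9, TNC, PTPRZ1, DBI and TTYH1 were lower too. NES, GLI3, LIFR and MOXD1 were not called against these cells. The glial genes AQP4, GFAP, ALDOC and GJA1, all 4 of the astrocyte list, were lower as well, and their summed level in the HES1 and SOX2 cells rose to 2246 CPM in E70_3 from 1161 in E50_1 and 1208 in E60_3. How far astrocytes among the HES1 and SOX2 cells moved the glial genes was not tested.

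Genes of the neuron list were mostly above the HES1 and SOX2 cells and mixed against the neuron-type cells. The neuron-type cells were chosen by neuronal genes, which by itself favours higher levels of such genes in them. Of 21 tested genes of the neuron list, 15 were higher than in the HES1 and SOX2 cells, while against the neuron-type cells 4 were higher and 6 were lower. Without E70_1 and E70_2 these were 15, 4 and 8, and without the block 6, 0 and 0. The 4 became 2 without E60_3 and 1 without E70_3. Where the order of neuronal genes is set out by level, the IP-like cells lay above the neuron-type cells for NRN1 and NEUROD1, near them for TBR1 and DCX, and below them for NEUROD2, STMN2 and NEUROD6.

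NRN1, neuritin, a membrane-anchored neurite growth factor, gave the largest increase over the HES1 and SOX2 cells among the genes named by rule (4.68 ± 0.28, adjusted p = 6.4e-07). It was 196 CPM in the IP-like cells of E50_1, 204 in E60_3, 79.2 in E70_1, 170 in E70_2 and 308 in E70_3, against 10.9, 5.65 and 7.29 CPM in the HES1 and SOX2 cells. The neuron-type cells had 125, 98.4, 70.9, 104 and 89.3 CPM, and NRN1 was higher in the IP-like cells of 5 of 5 libraries (0.88 ± 0.18, adjusted p = 0.0051, not called without E60_3). DCX, the microtubule-binding doublecortin, rose by 2.48 ± 0.21 over the HES1 and SOX2 cells, and its difference of -0.46 from the neuron-type cells did not pass (adjusted p = 0.068). TBR1 was at most 23.7 CPM in the IP-like cells of any library.

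NEUROD6, a factor of postmitotic pallial neurons, gave the largest decrease against the neuron-type cells among the genes named by rule. It was 100 CPM in the IP-like cells and 563 in the neuron-type cells of E50_1, 21.8 and 233 in E60_3, 5.66 and 89.2 in E70_1, 41.4 and 107 in E70_2, and 0 and 450 in E70_3. IP-like cells were lower in every library (-3.01 ± 0.39, adjusted p = 0.00015). STMN2, a microtubule regulator of growing neurites, was 1157, 923, 360, 918 and 394 CPM, against 3485, 3019, 729, 1147 and 5058 CPM in the neuron-type cells (-1.64 ± 0.32, adjusted p = 0.0032). NSG2, a neuronal vesicle protein, GAP43, a growth cone protein, and the tubulin TUBB3 were also lower.

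Genes of the G2M list, which act in mitosis, were mostly higher than in the neuron-type cells, and their differences from the HES1 and SOX2 cells did not pass the test. Of 48 tested genes of the G2M list, 40 were higher than in the neuron-type cells (38 without E70_1 and E70_2, 25 without the block), with a median log2 fold change of 1.96. Against the HES1 and SOX2 cells edgeR called 0 of the 48, with 2 at an unadjusted p under 0.05, both higher, and DESeq2 also called 0. The median difference there was -0.074. Without E70_1 and E70_2, 1 of the 48 was called higher than in the HES1 and SOX2 cells.

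UBE2C, the ubiquitin-conjugating enzyme of the anaphase-promoting complex, was 319 CPM in the IP-like cells of E50_1, 300 in E60_3, 82.4 in E70_1, 104 in E70_2 and 228 in E70_3. It lay between 1.19 and 9.01 CPM in the neuron-type cells of the 5 libraries, without overlap (6.24 ± 0.30, adjusted p = 1.2e-08). In the HES1 and SOX2 cells it was 250, 297 and 111 CPM, with a difference of 0.41 ± 0.24 that did not pass (adjusted p = 0.30). PIMREG, CDCA3, AURKB, CDC20, PBK, SPC24, CENPF and HMGB2, all of mitosis or chromatin, were among the 10 genes of largest increase over the neuron-type cells, with CRYAB, a small heat shock protein (3.71 ± 0.46). PBK, which is outside the G2M list, was called lower than in the HES1 and SOX2 cells (-0.79 ± 0.21, adjusted p = 0.019). TOP2A was 292, 268, 103, 119 and 104 CPM, and 5 cells held 83.5% of its UMIs in E70_1 and 94.1% in E70_2. It was found in 31.9% of the IP-like cells of E50_1, 45.9% of E60_3 and 13.0% of E70_3, or 22.2%, 23.5% and 4.35% after thinning to 3000 UMIs, when the microglia-type cells of these libraries held it in 8.53%, 14.7% and 9.43%. Only 3 of the 23 IP-like cells of E70_3 had a TOP2A UMI, and 1 cell held 20 of the 22 UMIs.

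Summed over the G2M list, the level was 5685 CPM in the IP-like cells of E50_1, 5260 in E60_3, 2253 in E70_1, 2545 in E70_2 and 3952 in E70_3, and 1127, 1334, 1018, 1008 and 1262 CPM in the neuron-type cells. IP-like cells were higher in 5 of 5 libraries, by a mean log2 difference of 1.69 ± 0.48 (SD, n = 5), with an exact two-sided sign-flip permutation p of 0.0625, the smallest that 5 libraries allow (0.25 adjusted over the 4 comparisons of cell cycle lists). The S list differed by 0.32 ± 0.53 (exact permutation p = 0.31, adjusted 0.42, higher in 3 of 5 libraries). Against the HES1 and SOX2 cells the G2M list differed by 0.059 ± 0.17 (exact permutation p = 0.75, adjusted 0.75). With at least 2 EOMES UMIs this difference was 0.47 and with at least 3 UMIs of the 5 genes 0.36, each with an exact permutation p of 0.25. The S list differed by -0.33 ± 0.33 (lower in 3 of 3 libraries, exact permutation p = 0.25, adjusted 0.42, where 0.25 is the smallest that 3 libraries allow).

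Of 40 tested genes of the S list, 12 were higher than in the neuron-type cells (15 without E70_1 and E70_2, 0 without the block), and 1, the replication licensing inhibitor GMNN, was lower than in the HES1 and SOX2 cells (-0.67 ± 0.18, adjusted p = 0.019). The GMNN call was lost without E50_1, E60_3 or E70_3, and without E60_3 6 genes of the S list were higher than in the neuron-type cells. Among cyclins and their inhibitors 6 of 12 were higher than in the neuron-type cells, with and without E70_1 and E70_2, including CCND1, CCND2, CDK6 and the CDK inhibitor CDKN2C. Against the HES1 and SOX2 cells edgeR and DESeq2 called 0 of the 12, with 1 at an unadjusted p under 0.05, and without E50_1 edgeR called 2 higher and 1 lower.

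Notch signalling, by which neighbouring progenitors keep each other from differentiating, was represented by 20 tested genes. Of these, 11 were higher than in the neuron-type cells (8 of 18 without E70_1 and E70_2, 7 of 20 without the block, and 6 of 20 without E60_3). Against the HES1 and SOX2 cells 6 were lower and 2 higher (6 and 1 of 18 without E70_1 and E70_2). The receptors NOTCH2 and NOTCH3 and the effectors HES4, HEY1 and HEY2, which Notch switches on, were lower than in the HES1 and SOX2 cells by 1.12 to 2.76 on the log2 scale, as was DTX4. NOTCH2, for example, had 21.5, 82.6 and 47.4 CPM in the IP-like cells of E50_1, E60_3 and E70_3 and 102, 199 and 146 CPM in the HES1 and SOX2 cells. NOTCH1 did not pass there (-0.15 ± 0.28) and was higher than in the neuron-type cells by 2.21 ± 0.28. MFNG and NUMBL, a relative of the Notch antagonist NUMB, were the 2 higher genes. MAML3, a coactivator of the Notch transcription complex that was in no list, was higher than in both classes, at 303, 350, 288, 208 and 498 CPM in the IP-like cells against 101, 81.7 and 74.1 CPM in the HES1 and SOX2 cells (2.03 ± 0.30, adjusted p = 0.00038) and 247, 117, 174, 128 and 83.6 CPM in the neuron-type cells (1.13 ± 0.24, adjusted p = 0.0053, not called without E60_3).

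Of 22 tested genes of migration and guidance, 8 were higher and 4 lower than in the HES1 and SOX2 cells, and 3 were higher and 5 lower than in the neuron-type cells. Without E60_3 these were 4, 1, 2 and 3, without E70_1 and E70_2 they were 9, 4, 3 and 5, and the 4 lower became 1 also without E50_1 or without E70_3. UNC5D, a netrin receptor of the subventricular zone, SEMA3C, a secreted semaphorin, and the semaphorin receptors PLXNA2, PLXNA4 and NRP1 lay between the classes, since each was higher than in the HES1 and SOX2 cells and lower than in the neuron-type cells. UNC5D was 180, 304, 136, 192 and 256 CPM in the IP-like cells, against 263, 425, 348, 272 and 272 CPM in the neuron-type cells, and its calls were lost without E60_3. LRP8, a reelin receptor, was higher than in both classes, but not called against the neuron-type cells without E50_1, E60_3 or E70_3. CXCR4, the receptor of the chemokine CXCL12, was 33.4, 35.3, 27.0, 48.4 and 28.5 CPM, below the HES1 and SOX2 cells (-1.89 ± 0.35, adjusted p = 0.0022) and above the neuron-type cells (3.21 ± 0.40, adjusted p = 9.3e-05), where it was at most 8.31 CPM. The calls of NRP1 and SEMA3C against the HES1 and SOX2 cells were lost without E60_3 and when at least 2 EOMES UMIs were required.

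**Figure D3:**
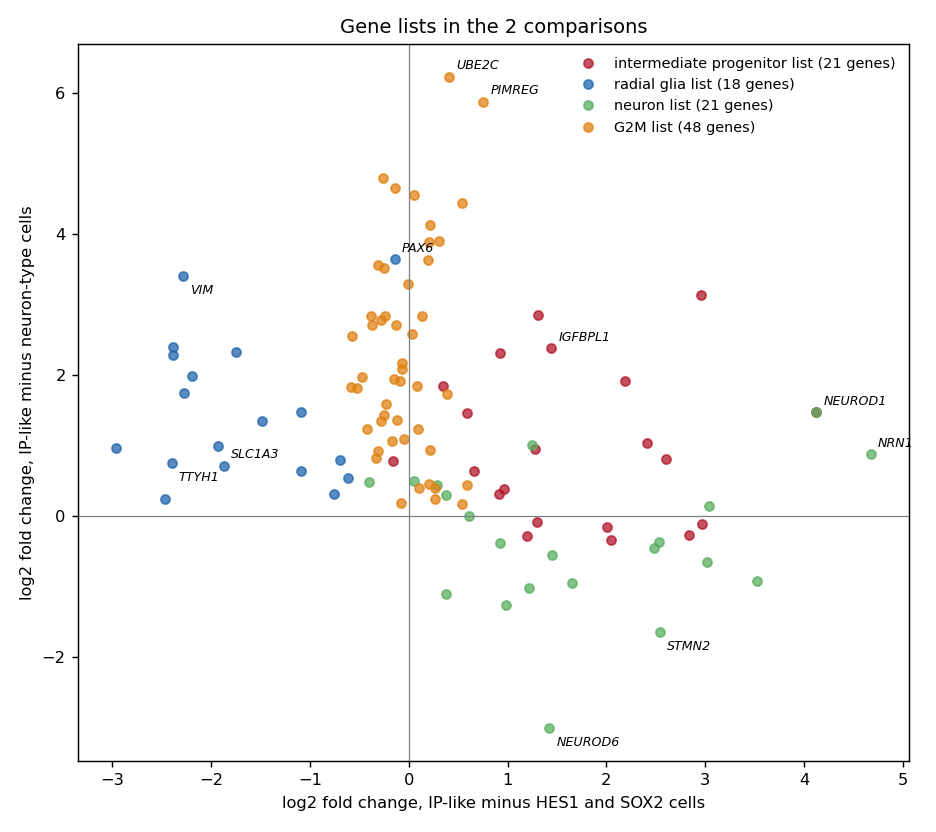
Fitted log2 fold change of the IP-like cells against the HES1 and SOX2 cells (horizontal) and against the neuron-type cells (vertical), 1 point per tested gene of 4 lists. Radial glia genes lay to the left and above 0, G2M genes near 0 on the horizontal axis and as high as 6.24 for UBE2C, and most neuron genes to the right, with NEUROD6 lowest at -3.01.

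Higher than in both classes were 67 genes (0.5% of those tested), and 8 were lower than in both (0.0598%). The same sums of IP-like cells enter both comparisons, so these are not independent counts. The choice of all classes by EOMES and the other genes of the rule also favours, among the higher genes, those that vary with the rule genes. Beside NEUROD1, IGFBPL1 and MAML3, the 15 with the largest smaller difference and at least 20 CPM held CRB1, an apical polarity protein, CDON, a Hedgehog co-receptor, ARHGAP24, a Rac GTPase-activating protein, TGM2, a transglutaminase, NDUFA4L2, ZMIZ1, THSD7B, CPPED1 and LY6G6F. CRB1 was 172, 232, 169, 177 and 308 CPM in the IP-like cells, 22.9, 79.2, 112, 108 and 42.5 CPM in the neuron-type cells, and 35.7, 95.5 and 94.2 CPM in the HES1 and SOX2 cells. IP-like cells were thus highest in every library, and the CRB1 call against the HES1 and SOX2 cells was lost without E50_1 or E60_3. NDUFA4L2, a mitochondrial protein, was 49.3, 29.6, 33.3, 48.4 and 56.9 CPM, against at most 16.9 CPM in any sum of the other classes, and was found in 93 of the 248 IP-like cells of E50_1.

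HBM, PRPH and SNCG were in the same list of 15 through few cells. A single cell held 74% of the HBM UMIs and another 64% of the PRPH UMIs among the IP-like cells of E50_1, and 5 cells held 88% of its SNCG UMIs. HBM is a globin of red blood cells, and PRPH and SNCG are proteins of peripheral and projection neurons. The 5 genes of largest decrease against both classes were SLC35F3, NTM, ADAMTS3, CFAP100 and GAREM1. SLC35F3, a transporter, was 17.5, 43.6, 29.5, 25.2 and 23.7 CPM, and lay at 43.3 CPM or more in every sum of the other 2 classes. NTM lost both calls without E50_1, E60_3 or E70_3.

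Among themselves the IP-like cells differed with their EOMES count. In E50_1 the 110 cells with 1 EOMES UMI and the 138 with 2 or more had a median depth of 8227 and 8297.5 UMIs. STMN2 was 1962 CPM in the former and 380 in the latter. SOX2 was 129 and 313 CPM, TOP2A 178 and 401, NEUROD4 26.7 and 116, and TFAP2C 53.4 and 165. EOMES and NEUROD4 are genes of the rule itself. These are sums over cells of 1 library each, with no test.

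The same order was seen for STMN2, TOP2A, NEUROD4 and TFAP2C in E60_3 and E70_3, but for SOX2 in E60_3 alone. In E60_3 STMN2 was 2247 CPM in 20 cells with 1 EOMES UMI and 620 in 78 with 2 or more, and TOP2A 92.1 and 308 CPM, though the latter cells were deeper (14820.5 against 7546 UMIs). In E70_3 STMN2 was 631 CPM in 11 cells and 138 in 12 cells, and TOP2A 9.15 and 207 CPM, from 1 and 21 UMIs. In E70_1 STMN2 was 658 and 276 CPM, while in E70_2 it was 648 and 994 CPM, the opposite order. SOX2 rose from 22.3 to 91.9 CPM in E60_3 and was 64.1 and 29.6 CPM in E70_3, from 7 and 3 UMIs. NRN1 hardly moved with EOMES, at 185 and 206 CPM in E50_1, 243 and 195 in E60_3, and 329 and 286 in E70_3.

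**Figure D4:**
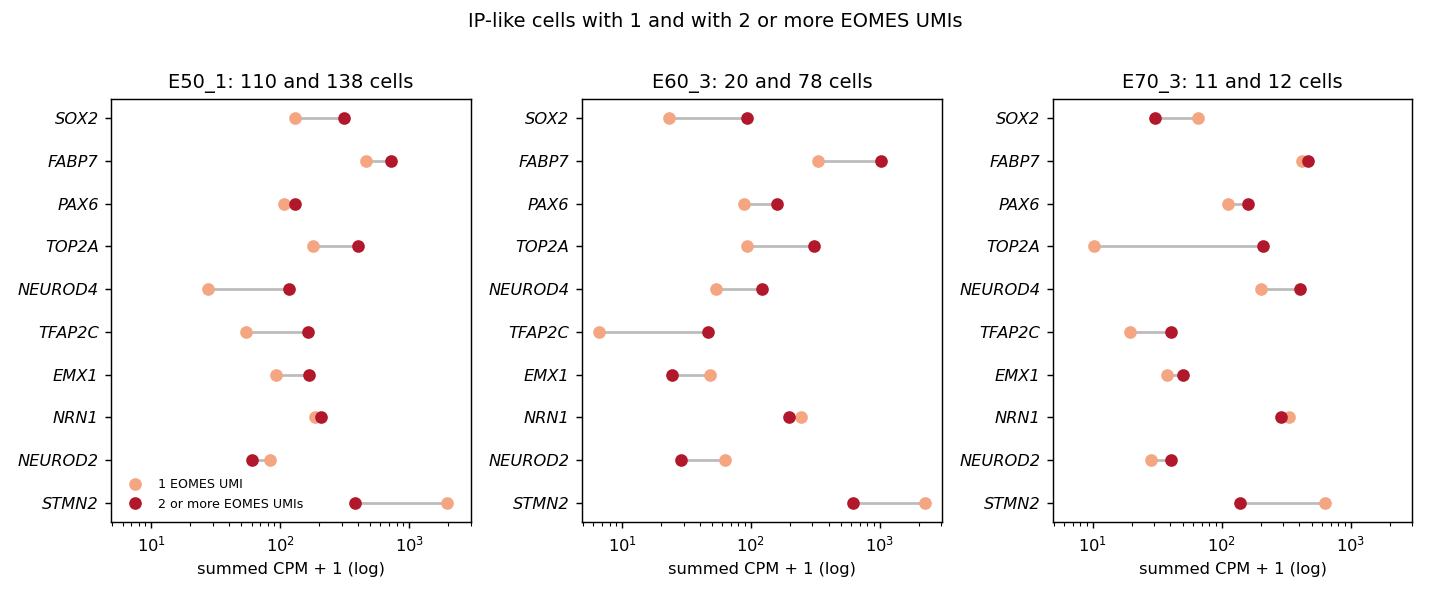
Summed CPM + 1 (log axis) of 10 genes in IP-like cells with 1 EOMES UMI (light) and with 2 or more (dark) in the 3 libraries where EOMES was not found widely in microglia-type cells. STMN2 was higher in cells with 1 EOMES UMI and TOP2A, NEUROD4 and TFAP2C in cells with 2 or more, in all 3 panels.

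A split by SOX2 gave a like picture. In E50_1 149 IP-like cells (60.1%) had a SOX2 UMI, and TOP2A was 425 CPM in these and 84.3 in the 99 without it, while STMN2 was 512 and 2160 CPM. In E60_3 TOP2A was 294 and 209 CPM and STMN2 703 and 1430 CPM. RELN, an extracellular protein of Cajal-Retzius cells that carries high levels in few cells, was lower in the IP-like cells with SOX2, at 127 against 433 CPM in E50_1 and 51.4 against 367 CPM in E60_3. In NEUROD1-bearing IP-like cells of E50_1 (112 of 248) RELN was 491 CPM, and it was 74.0 CPM in the other 136.

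Markers of other cell types were present in parts of the class, and their part in the results was not tested. The summed level of 5 Cajal-Retzius genes (RELN, CALB2, TP73, LHX1 and LHX5) was 341 CPM in the IP-like cells of E50_1, 221 in E60_3, 380 in E70_1, 981 in E70_2 and 109 in E70_3, with LHX1 and LHX5 at 0 in E70_3. The 3 tested genes of this list, RELN, CALB2 and LHX1, were higher than in the HES1 and SOX2 cells, RELN and LHX1 not so without E60_3 or with at least 2 EOMES UMIs. None was called by edgeR or DESeq2 against the neuron-type cells, where 2 had an unadjusted p under 0.05. In E70_2, 5 of 43 cells held 90% of the RELN UMIs. The 9 retina and pineal genes summed to 491 CPM in E70_1 and to between 12.5 and 56.9 CPM in the other 4 libraries. In E70_1 RCVRN, recoverin of photoreceptors, was 205 CPM with 95% of its UMIs in 5 cells, and OTX2 was 98.7 CPM, so some IP-like cells of that library carried photoreceptor-type genes. EOMES is also expressed outside the cortex, in retina among other places.

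Genes of the pallium, the part of the forebrain that forms cortex, were present in the IP-like cells of all 5 libraries. The 8 genes of this list summed to 738 CPM in E50_1, 1058 in E60_3 and 963 in E70_3, and to 266 and 294 CPM in E70_1 and E70_2. In the neuron-type cells the sums were 861, 967, 400, 292 and 899 CPM in the 5 libraries, and in the HES1 and SOX2 cells of E50_1, E60_3 and E70_3 446, 917 and 764 CPM. Of 7 tested genes, EMX1 and TBR1 were higher than in the HES1 and SOX2 cells, while against the neuron-type cells EMX1, EMX2 and TFAP2C were higher, NEUROD6 was lower and 3 were not called. EMX1, a homeobox factor of the pallium, was 130, 28.0, 11.3, 25.2 and 42.7 CPM and was higher than in the HES1 and SOX2 cells (1.25 ± 0.29, adjusted p = 0.0097) and the neuron-type cells (1.00 ± 0.26, adjusted p = 0.017, higher in 4 of 5 libraries), with both calls lost without E50_1 or without E70_3. The 11 midbrain and diencephalon genes summed to 131 CPM in the IP-like cells of E50_1, against 952 CPM in the neuron-type and 385 CPM in the HES1 and SOX2 cells of this library, and to 36.9 and 28.0 CPM in the neuron-type cells of E60_3 and E70_3. In E50_1 the comparison classes thus held more of these genes than the IP-like cells did. In the other 4 libraries the IP-like cells, at 98.7 CPM in E60_3, 262 in E70_1, 118 in E70_2 and 85.4 in E70_3, lay above the neuron-type cells, which had 103 and 104 CPM in E70_1 and E70_2, with overlapping intervals in E70_2.

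The remaining marker lists were low or patchy. Red blood cell globins summed to 4214 CPM in the IP-like cells of E50_1, above the 1566 and 823 CPM of its other 2 classes, and 5 of the 248 cells held 84% of the HBB UMIs there. In E70_1 they summed to 1711 CPM, against 556 CPM in the neuron-type cells. Microglial genes summed to between 14.2 and 146 CPM, with AIF1, CSF1R, C1QA, C1QB and C1QC at 0 in E70_3, vascular genes to between 33.2 and 68.4 CPM in E50_1, E60_3 and E70_3 and to 261 and 349 CPM in E70_1 and E70_2, oligodendroglial genes to between 14.2 and 94.8 CPM, and interneuron genes to between 30.6 and 104 CPM. The 7 cerebellar and rhombic lip genes summed to between 58.5 and 196 CPM, with ATOH1 at 0 in all 5 libraries.

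Across stages, the IP-like cells of E50_1 differed at least 4-fold from those of both E60_3 and the pooled E70 libraries in 154 genes that were higher (1.31% of 11784 genes with at least 30 UMIs in a stage) and 114 that were lower (0.967%). These are differences between libraries, with 1 library at E50 and at E60. The other classes were judged by a 4-fold difference of CPM + 1, with no minimum of UMIs, which is not the same measure. Of the 154 higher genes, 110 (71.4%) passed it in the neuron-type cells and 104 (67.5%) in the HES1 and SOX2 cells. Of the 114 lower genes, 48 (42.1%) and 23 (20.2%) did. For the HES1 and SOX2 cells the E70 level is that of E70_3 alone.

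The genes with the largest rise at E50 were C4orf48, NEFL, SCT, PCSK1N, MRPL57, SIVA1, MRPL36 and TPGS1. C4orf48 was 267 CPM in the IP-like cells of E50_1, 2.60 in E60_3 and 1.07 over E70, and likewise 409, 1.18 and 2.02 CPM in the neuron-type cells. PCSK1N, a neuroendocrine peptide precursor, was 396, 7.27 and 10.4 CPM in the IP-like and 536, 6.62 and 7.63 CPM in the neuron-type cells. TUBB3, a neuronal tubulin, followed this pattern. It was 2248 CPM in the IP-like cells of E50_1 and 33.2 to 181 CPM in the 3 E70 libraries. In the neuron-type cells it was 4580 against 56.2 to 247 CPM. Stage and library cannot be told apart for these genes.

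SCT, the peptide hormone secretin, was an exception among the 8. It was 95 CPM in the IP-like cells of E50_1 and 0 UMIs were found in those of the other 4 libraries, while the neuron-type and the HES1 and SOX2 cells of E50_1 had 2.77 and 1.81 CPM. Its 239 UMIs came from 23 of 248 cells, with 67% in 5 cells. NEFL, a neurofilament, was carried by 48 cells, with 80% of its UMIs in 5 cells. NEFL also departed from the pattern in the neuron-type cells. It was 288 CPM there in E50_1, 15.4 in E60_3 and 92.0 over E70, under a 4-fold difference between E50_1 and E70.

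The genes with the largest fall at E50 were COPS7A, ADGRE3, DDX3Y, GRP, CHRNB3, SCML4, EIF1AY and TEC. The pooled E70 level rests mostly on E70_1 and E70_2, with 1590659 and 991269 UMIs, against 210782 in E70_3. In E70_3 SCML4 and ADGRE3 were each at 9.49 CPM, against 3.18 and 1.19 CPM in E50_1. Both lay under the 14.2 CPM that 3 UMIs give in E70_3, so their fall is not shown there. DDX3Y and EIF1AY are Y-linked, and DDX3Y was 1.99 CPM in the IP-like cells of E50_1, 47.3 in E60_3 and 29.0 over E70, with 0, 45.9 and 84.5 CPM in the neuron-type cells. GRP, gastrin-releasing peptide, was 9.54 CPM in E50_1, 136 in E60_3 and 338 over E70, where E70_3 had 38.0. In the neuron-type cells it was 15.2, 114 and 104 CPM. TEC, a cytosolic tyrosine kinase, was 7.55, 76.9 and 75.2 CPM, and 128 in E70_3. No gene of these 8 was called between the IP-like and either other class.

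**Figure D5:**
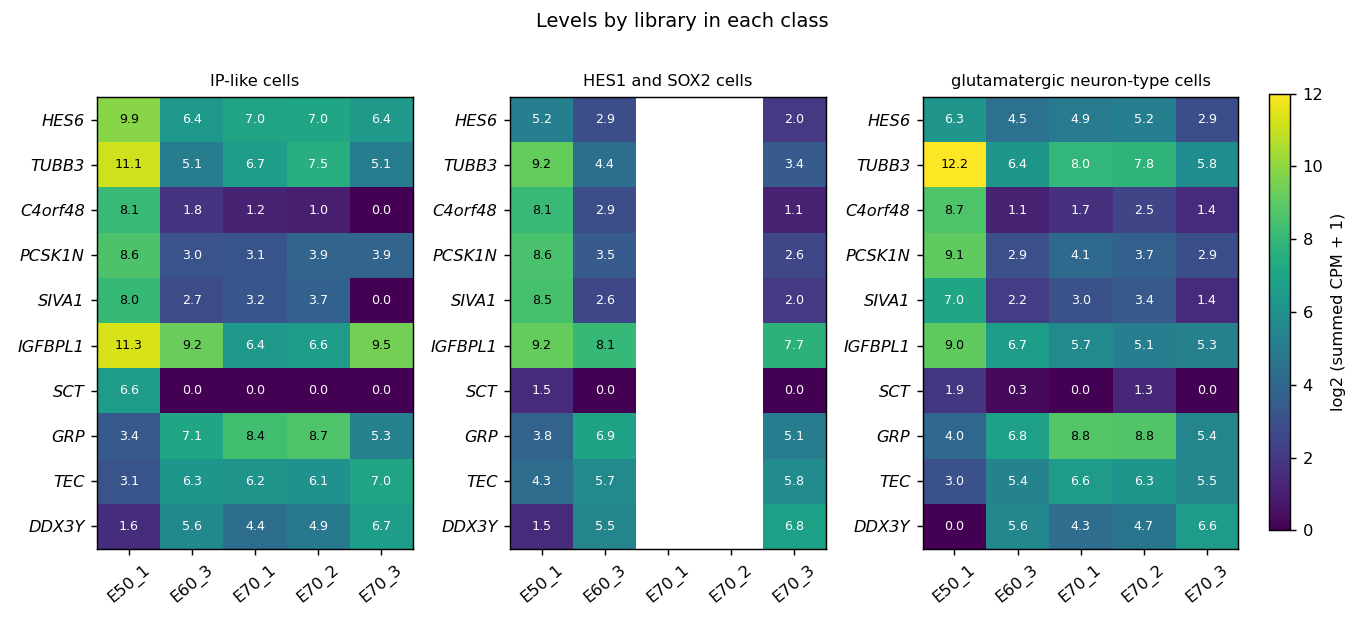
log2 (CPM + 1) of 10 genes in each library (columns) for the 3 classes (panels), with blank cells where a class had under 10 cells. TUBB3, C4orf48, PCSK1N and SIVA1 were high in E50_1 in every class, and GRP, TEC and DDX3Y were low there in every class. SCT reached 95 CPM in the IP-like cells of E50_1 and at most 2.77 elsewhere. HES6 is a gene of the rules, which bound its count in all 3 classes, so its levels are a description only.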

How the data were processed

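Per the labels, whole cells were dissociated with papain and nuclei were sorted from frozen tissue. The authors captured them on the 10x Genomics Chromium platform, and mapped reads with Cell Ranger to pre-mRNA (introns included) of Sscrofa11.1. They deposited raw UMI counts per gene and cell, which were used without any further normalization. Library totals ranged from 6314174 UMIs (E70_1) to 55755512 UMIs (E50_1) in the 5 libraries used. Barcodes shared by 2 of these libraries numbered 1 to 25, and no IP-like cell shared its barcode with one of another library.

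IP-like cells, comparison classes, gene lists and named genes were chosen with earlier results of these data known. Counts were summed per library and class (sums under 10 cells left out) and tested with edgeR 4.0.16 (TMM, filterByExpr, glmQLFit and glmQLFTest, library as block, two-sided). The block pairs the classes because their cells come from the same library. The p-values weigh each class difference against its variation between libraries, after the block has taken out each library's own level. Genes were named where they belonged to a fixed list, were among the 10 largest called changes in each direction with at least 20 CPM and 1 direction in every library, the 15 higher or 5 lower than both classes, or the 8 largest stage differences each way with at least 30 UMIs. In simulated counts, 29 of 89 genes changed by 1 log2 unit and 109 of 111 changed by 2 were recovered against the HES1 and SOX2 cells (56 of 89 and 111 of 111 against the neuron-type cells). Scrublet called 9, 0, 2, 2 and 0 IP-like cells doublets (0.192% to 2.52% of all cells in a library), which stayed in except in 1 alternative. Other alternatives were RLE size factors, no filter, DESeq2 1.42.0, no block, stricter rules, thinning to 3000 UMIs, and leaving out each library. Leaving out E70_1 and E70_2 together, and the rule without HES6, were chosen after seeing the data. A further gene that defined the neuron-type cells is not reported here.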

Additional observations from a re-analysis of the deposited data

Results flagged for a closer look

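A signal lay outside the libraries of the rule. In E60_2, 4 cells of 3479 met the same UMI rule (0.115%, exact 95% interval 0.0313 to 0.294%), of which 2 held both HES6 and NEUROD4. Its microglia-type cells held an EOMES UMI in 2 of 469 cells (0.426%, exact 95% interval 0.0517 to 1.53%), and all its cells in 0.172%. Of its 6 cells with an EOMES UMI, 4 met the rule (66.7%), while 160 of its 3479 cells held at least 2 UMIs of the 5 genes. No group held 4 or more libraries, so no library was tested as an outlier.

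GJA1, the gap junction protein connexin 43, differed in direction between the IP-like and neuron-type cells of E50 and E70. On the log2 (CPM + 1) scale the IP-like cells were at -1.99 relative to the neuron-type cells in E50_1, and at 1.64 in E70_1, 3.12 in E70_2 and 1.93 in E70_3. The E70_3 value rests on 1 and 3 UMIs. E50 is 1 library, and the difference between stages was not tested.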

How the results depend on the processing

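The number of genes called depended on the block for library. With no replicate block, 285 genes were called against the HES1 and SOX2 cells and 227 against the neuron-type cells, in place of 1769 and 1818 with it, all of them among these. Against the HES1 and SOX2 cells 1048 genes were called with at least 2 EOMES UMIs, and against the neuron-type cells 802 with cells thinned to 3000 UMIs, where 8832 genes were tested. Leaving out 1 library gave 811 to 1651 calls against the HES1 and SOX2 cells and 669 to 1674 against the neuron-type cells, lowest in both without E60_3, and 1094 against the HES1 and SOX2 cells without E70_3. When 1 library was left out, the G2M difference from the HES1 and SOX2 cells ranged from -0.036 without E70_3, a change of sign, to 0.12 without E60_3. It was 0.47 with at least 2 EOMES UMIs, 0.36 with at least 3 UMIs of the 5 genes, 0.19 with EOMES and NEUROD4, and 0.18 after thinning. With EOMES and NEUROD4 required and HES6 not used, NEFL turned to -0.63 against the HES1 and SOX2 cells and SNCG to -1.06 against the neuron-type cells. No other call of a gene tested by name changed sign under the alternatives run. RLE size factors changed no call among 286 values of named genes, and the block changed most, with 128 calls lost without it.

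The shares of IP-like cells moved with the rule and the depth. With at least 2 EOMES UMIs they were 2.51% in E50_1, 2.89% in E60_3, 4.26% in E70_1, 4.21% in E70_2 and 0.385% in E70_3. With at least 3 UMIs of the 5 genes they were 2.26% in E60_3, 5.48% in E70_1, 3.57% in E70_2 and 0.417% in E70_3. In cells thinned to 3000 UMIs they were 1.94%, 0.445%, 0.415%, 0.493% and 0.321% in E50_1, E60_3, E70_1, E70_2 and E70_3. With EOMES and NEUROD4 alone they were 1.87% in E50_1, 4.06% in E70_1, 2.27% in E70_2 and 1.22% in E70_3. The cause of these changes was not tested beyond the rules and depths themselves. Depth limits genes under about 20 CPM in E70_3, whose IP-like cells held 210782 UMIs in all.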
